A study of Homo sapiens with 24 samples.

Results

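Antisense knockdown of NEAT1 was compared with a control antisense oligonucleotide in SBC-3 cells, an established human small cell lung cancer line, by small RNA sequencing. The comparison used 9 of the 24 libraries of the series: 3 from cells given ASO-NEAT1-1047, 3 from cells given ASO-NEAT1-1473 and 3 from cells given ASO-Ctrl, assigned by the sample titles. All 9 samples were SBC-3 cells that received 10 nM oligonucleotide by reverse transfection and were harvested after 72 h, and 100 ng of total RNA with 0.1 µL of a spike-in mix went into each library. The other 15 libraries were treated with the siRNAs siSFPQ-2 or siSFPQ-3 to deplete SFPQ, with siNONO-3 or siNONO-4 to deplete NONO, or with siCtrl. They entered the filter on low counts, the scaling between libraries, the shared estimate of the spread and the comparisons with SFPQ and NONO loss. All 2652 mature miRNAs in the tables were taken, each at the locus with most counts. The filter on low counts, run over the 24 libraries, passed 626, which were tested. With the 9 libraries alone it passed 552. These 626 held 99.97% of the miRNA counts of the 9 libraries. The labels do not say whether replicates were separate cultures, so p-values measure the spread between libraries, which may be technical.

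NEAT1 is a long noncoding RNA that stays in the nucleus and is the scaffold of paraspeckles, nuclear bodies that assemble on it together with the RNA-binding proteins SFPQ and NONO. A miRNA starts as a hairpin in a longer transcript, is cut out by Drosha and DGCR8 in the nucleus and by Dicer in the cytoplasm, and guides Argonaute to messenger RNAs through its seed, bases 2 to 8. NEAT1 with its protein partners has been described as a platform that helps the Drosha step in other cells, and NEAT1 has also been proposed to bind several mature miRNAs, so its loss is a test of whether miRNA levels need it. An antisense oligonucleotide pairs with its target RNA and, in the common design, directs its cleavage.

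Sequences of some abundant miRNAs are shown first. The following mature sequences are from RefSeq (GRCh38.p14), written 5′ to 3′ with the seed in capitals; a RefSeq sequence was matched for 555 of the 626 tested miRNAs. The first 9 lines are abundant species, with miR-17-5p beside miR-20a-5p to show their shared seed.
miR-9-5p: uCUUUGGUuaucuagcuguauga
miR-335-5p: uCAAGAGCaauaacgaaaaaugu
miR-335-3p: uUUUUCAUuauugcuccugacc
miR-19a-3p: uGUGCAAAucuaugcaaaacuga
miR-19b-3p: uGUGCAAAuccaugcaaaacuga
miR-199a-3p: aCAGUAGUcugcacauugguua
miR-20a-5p: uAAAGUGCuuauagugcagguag
miR-17-5p: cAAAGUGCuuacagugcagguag
miR-21-5p: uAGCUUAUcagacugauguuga
The next 5 are the species with the lowest p-values or with the lowest levels after ASO-NEAT1-1473, described further on.
miR-532-3p: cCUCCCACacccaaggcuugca
miR-4455: aGGGUGUGuguguuuuu
miR-212-3p: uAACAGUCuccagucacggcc
miR-125a-5p: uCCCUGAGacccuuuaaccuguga
miR-99b-5p: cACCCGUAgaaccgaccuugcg
miR-19a-3p and miR-19b-3p have the same seed and differ at 1 of 23 bases, and the 22 bases of miR-199a-3p and miR-199b-3p are identical (0 mismatches). Their counts differed by at most 2.36% and 0.0332% in any of the 9 libraries, so the values of such pairs are largely the same reads and do not count as separate evidence.

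Sequencing depth was 3628753 to 4034465 miRNA counts in the ASO-Ctrl libraries, 3815942 to 4010638 with ASO-NEAT1-1047 and 2461178 to 3223547 with ASO-NEAT1-1473, so the last group was the shallowest. Between 1011 and 1180 miRNAs had at least 1 count in a library. The neural and neuroendocrine markers of the line were led by miR-9-5p and miR-7-5p, while miR-375-3p, a neuroendocrine marker, had 27 counts and miR-124-3p, a neuronal one, 16 counts in the 9 libraries together. Markers of other cell types were at or near 0 for liver (miR-122-5p, 0 counts), red blood cells (miR-451a, 3 counts) and myeloid cells (miR-223-3p, 6 counts), but 10 of the 17 markers of other cell types passed the filter. Among these, miR-199a-3p, usual in fibroblasts, was abundant in all 9 libraries. Endothelial miR-126-3p had a mean of 1014 CPM, muscle miR-1-3p 442 CPM and smooth muscle miR-143-3p 238 CPM. Squamous miR-205-5p had 97.6 CPM, muscle miR-133a-3p 77.1 CPM and blood-cell miR-142-3p 70.1 CPM. CPM are counts per 1000000 miRNA counts, scaled between libraries. Without miR-199a-3p the other 9 summed to 1622 to 2265 CPM in the ASO-Ctrl libraries, 1671 to 2303 CPM with ASO-NEAT1-1047 and 1773 to 2214 CPM with ASO-NEAT1-1473, so the groups overlapped.

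The knockdown itself could not be read from these data, because the tables hold miRNAs and not NEAT1. The only miRNA of the tables that lies in NEAT1 is miR-612 (chr11:65444473-65444497, plus strand, in a NEAT1 exon, hg38; the gene spans chr11:65422774-65445540), and it had 0 counts in all 9 antisense libraries and 1 count in the 24. A count of 0 allows up to 3 counts, or 0.744 to 1.22 CPM depending on the library, for counting error only. Within 1 Mb of NEAT1 only the miR-192 and miR-194 hairpins in MIR194-2HG gave tested miRNAs. miR-192-5p, induced by p53 in other settings, stood at 2032, 1873 and 1637 CPM in the ASO-Ctrl libraries, at 1955, 1569 and 1656 CPM with ASO-NEAT1-1047 and at 2306, 1561 and 1510.0 CPM with ASO-NEAT1-1473. The groups overlapped, and the log2 fold change of both NEAT1 groups over ASO-Ctrl was -0.07 (95% interval -0.48 to 0.33).

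No miRNA changed past the threshold after NEAT1 knockdown. Of the 626 tested, 0 were higher and 0 were lower in the 6 NEAT1 libraries than in the 3 ASO-Ctrl libraries at an adjusted p under 0.05 (0% called; edgeR quasi-likelihood test, Benjamini-Hochberg adjustment over the 626), and the lowest adjusted p was 0.908. At an unadjusted p under 0.05, 5 were higher (0.799%) and 14 lower (2.24%), together 3.04%, and DESeq2 called 0. Each oligonucleotide alone also gave 0 calls with edgeR and with DESeq2, though some alternative fits, described further on, called miRNAs. ASO-NEAT1-1047 had 5 miRNAs at an unadjusted p under 0.05 (0.799%), and ASO-NEAT1-1473 had 42 (6.71%), 15 higher (2.4%) and 27 lower (4.31%), with a lowest adjusted p of 0.398. The direct comparison of ASO-NEAT1-1473 with ASO-NEAT1-1047 called 0 miRNAs, with 15 at an unadjusted p under 0.05 (2.4%) and a lowest adjusted p of 0.954.

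The most abundant miRNA was miR-9-5p (chr5:88666902-88666924, in an exon of LINC00461), a neural miRNA. It stood at 84015, 93506 and 91913 CPM in the ASO-Ctrl libraries, at 93653, 106856 and 87096 CPM with ASO-NEAT1-1047 and at 100888, 101326 and 94098 CPM with ASO-NEAT1-1473. All 3 ASO-NEAT1-1473 libraries lay above all 3 ASO-Ctrl libraries, and the ASO-NEAT1-1047 libraries overlapped both. Its log2 fold change was 0.12 (95% interval -0.15 to 0.37, adjusted p 0.91), so the largest change inside the interval was 1.29-fold. An equivalence test, which asks whether the change is smaller than a stated fold, placed miR-9-5p within 1.5-fold (adjusted p 0.0315).

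The 2 strands of miR-335, from an intron of the imprinted gene MEST (chr7:130496126-130496148 and chr7:130496162-130496183), came next. miR-335-5p was at 67275, 63047 and 65109.6 CPM with ASO-Ctrl, 71468, 70178 and 57274 CPM with ASO-NEAT1-1047 and 72890.1, 64518 and 67879 CPM with ASO-NEAT1-1473. The groups overlapped, and its log2 fold change was 0.05 (95% interval -0.36 to 0.44). miR-335-3p had a log2 fold change of 0.17 (95% interval -0.13 to 0.46), and both strands were within 2-fold by the equivalence test.

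miR-21-5p (chr17:59841273-59841294, in an exon of VMP1), an abundant oncogenic miRNA, was the abundant species in which the oligonucleotides lay furthest apart on the upper side. It was at 37886, 34926 and 28124 CPM with ASO-Ctrl, at 35251, 30042 and 32926 CPM with ASO-NEAT1-1047 and at 60592, 45279 and 39410.2 CPM with ASO-NEAT1-1473. The 3 ASO-NEAT1-1473 libraries were above every library of the other groups, while ASO-NEAT1-1047 fell inside the control range. The log2 fold change was 0.53 for ASO-NEAT1-1473 (unadjusted p 0.0698, adjusted p 0.605) and -0.04 for ASO-NEAT1-1047 (95% interval -0.61 to 0.53), and their difference of 0.56 (95% interval -0.01 to 1.14) had an adjusted p of 0.954. Its passenger strand, miR-21-3p, from the same hairpin, had a log2 fold change of 0.10 with ASO-NEAT1-1473 (95% interval -0.35 to 0.55).

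**Figure D1:**
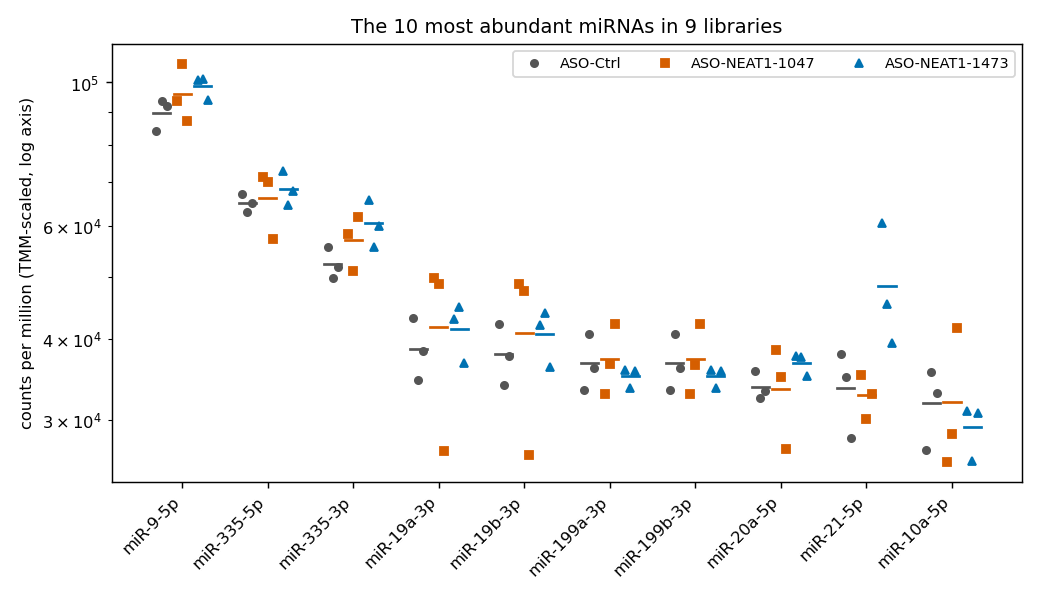
CPM (log axis) of the 10 most abundant miRNAs in each of the 9 libraries; points are libraries, colours and symbols are the groups, and short lines are the means of 3. The groups overlap for most species, and miR-21-5p with ASO-NEAT1-1473, from 39410.2 to 60592 CPM, stands above the other groups.

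miR-17~92, a MYC-induced cluster from MIR17HG on chromosome 13 with oncogenic members, gave 12 tested products, of which 0 were called. Among them, miR-19b-3p was counted at its locus on chromosome X (chrX:134169683-134169705) and is largely the same reads as miR-19a-3p. Of the 12, 9 had a positive log2 fold change, with a median of 0.11 beside -0.04 over all tested, and 11 were within 2-fold by the equivalence test. miR-19a-3p was at 43141, 34576 and 38314 CPM with ASO-Ctrl, at 49836, 48620.2 and 26851 CPM with ASO-NEAT1-1047 and at 42997, 44853 and 36791 CPM with ASO-NEAT1-1473. The highest and the lowest of these 9 values both came from ASO-NEAT1-1047, so the spread inside 1 group exceeded any shift between groups. Its log2 fold change was 0.11 (95% interval -0.45 to 0.64). miR-17-5p, which restrains cell-cycle inhibitors and shares its seed with miR-20a-5p, had the highest estimate among miRNAs of at least 1000 CPM, a log2 fold change of 0.36 (95% interval -0.14 to 0.84). miR-92a-3p, from the end of the same transcript, went the other way at -0.33 (95% interval -0.98 to 0.28), with ASO-Ctrl libraries at 14624, 28357 and 24469 CPM. Neither passed the threshold (adjusted p 0.908 for both).

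The bounds on a missed change were narrow for abundant miRNAs. Over the 83 miRNAs with a mean of at least 1000 CPM in the 9 libraries, which held 95.8% of the counts, the median of the largest fold inside the 95% interval was 1.42, and it ran from 1.21 for miR-7-5p, a neural miRNA, to 2.35 for miR-483-3p, made from an intron of IGF2. The whole interval lay within 2-fold for 80 of the 83 and within 1.5-fold for 49. The equivalence test, adjusted over the 626, placed 81 of the 83 within 2-fold (72.4% of all tested passed) and 27 within 1.5-fold (6.39% of all tested). The 2 that did not pass at 2-fold were miR-483-3p and miR-99b-5p. The count within 1.5-fold fell to 0 when any of the 3 ASO-Ctrl libraries was left out and was 0 with scaling to the spike-in totals, whereas the count within 2-fold stayed between 72 and 83 when any of the 9 libraries was left out.

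Precision fell with abundance. The median of the largest fold inside the interval was 1.55 for the 125 miRNAs of 100 to 1000 CPM, 1.68 for the 172 of 10 to 100 CPM and 2.23 for the 246 under 10 CPM. Within 2-fold by the equivalence test were 113, 159 and 100 of them. Over all 626, 453 were within 2-fold, and these held 99.3% of all miRNA counts. For 9 tested miRNAs, among them 5 miR-302 products, no finite fold could be estimated because a group held only zeros. The fold that would have been called with a chance of 80% at the p that the single lowest of 626 must reach was 2.10 at the median for miRNAs of at least 1000 CPM, 2.27 and 2.70 for the next 2 classes and 5.07 for those under 10 CPM. So a change of less than about 2-fold in a single abundant miRNA could go uncalled here, even where its interval excluded 2-fold.

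**Figure D2:**
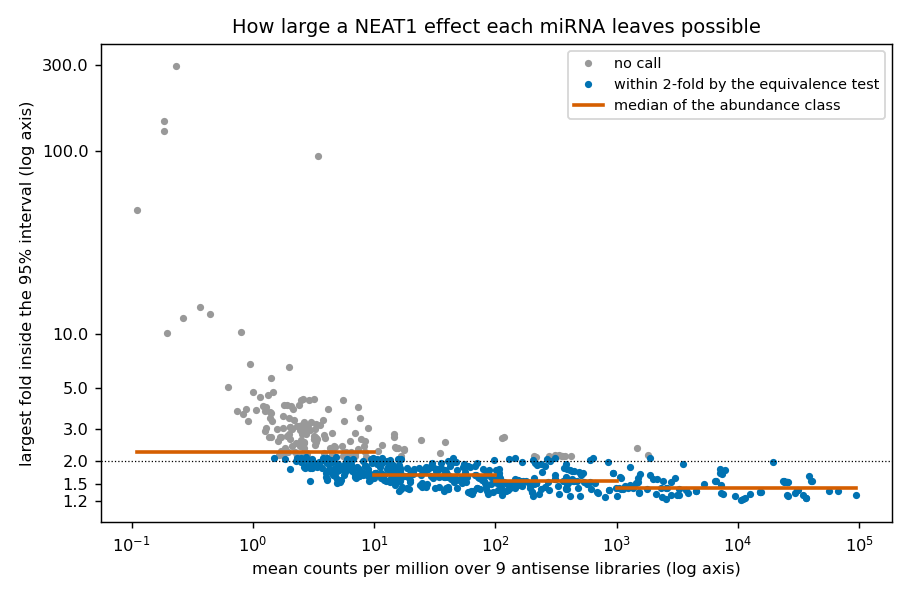
The largest fold change inside the 95% interval of the pooled NEAT1 comparison (log axis) against mean abundance (log axis) for the 617 miRNAs with a finite estimate; blue points were within 2-fold by the equivalence test and orange lines are the medians of the abundance classes. The medians fall from 2.23 under 10 CPM to 1.42 at 1000 CPM or more.

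The oligonucleotides were also bounded one at a time, from 3 libraries each. For ASO-NEAT1-1047, the median of the largest fold inside the interval was 1.44 over the abundant miRNAs, beside 1.42 for the pooled comparison, and 83 of the 83 abundant miRNAs were within 2-fold (68.8% of all tested) and 5 within 1.5-fold (0.799% of all tested) by the equivalence test. For ASO-NEAT1-1473, that median was 1.53, and 73 were within 2-fold (45% of all tested) and 0 within 1.5-fold (0% of all tested). The estimates were also further from 0 with ASO-NEAT1-1473, with a median absolute log2 fold change of 0.20 against 0.07 for ASO-NEAT1-1047 over the abundant miRNAs.

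A shift of all miRNAs together would not be seen after scaling between libraries, so the total was read against the spike-ins. The ratio of miRNA counts to spike-in counts was 36.7, 39.3 and 43.3 in the ASO-Ctrl libraries, 38.6, 40.2 and 43.5 with ASO-NEAT1-1047 and 36.6, 39.6 and 38.1 with ASO-NEAT1-1473. All groups overlapped. The 6 NEAT1 libraries differed from ASO-Ctrl by -0.66% (95% interval -10.7% to 10.3%; exact two-sided permutation test, p = 0.905, with a smallest possible p of 0.0238 over 84 groupings). For each oligonucleotide alone the exact permutation p was 0.7 and 0.6, where 3 libraries against 3 cannot go below 0.1.

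The miRNAs with the lowest p-values were of low abundance, and none passed the adjustment (adjusted p 0.908 for each). miR-532-3p, from a cluster in an intron of CLCN5 (chrX:50003204-50003225), was at 10.0, 15.6 and 13.6 CPM with ASO-Ctrl, at 6.94, 7.05 and 9.36 CPM with ASO-NEAT1-1047 and at 5.24, 4.38 and 7.28 CPM with ASO-NEAT1-1473. All 6 NEAT1 values lay below all 3 control values, from counts of 11 to 32 per NEAT1 library. Its log2 fold change was -0.97 (95% interval -1.59 to -0.37, unadjusted p 0.00276). miR-4455 (chr4:184938421-184938437, between genes) was at 3.59, 2.19 and 2.56 CPM with ASO-Ctrl, at 8.05, 6.49 and 3.22 CPM with ASO-NEAT1-1047 and at 7.42, 9.56 and 6.62 CPM with ASO-NEAT1-1473, a log2 fold change of 1.28 (95% interval 0.46 to 2.12). The groups overlapped in 1 library, the third of ASO-NEAT1-1047.

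miR-212-3p (chr17:2050290-2050310), a CREB-responsive miRNA in neurons, was at 3.08, 3.75 and 2.84 CPM with ASO-Ctrl, at 2.22, 1.97 and 2.92 CPM with ASO-NEAT1-1047 and at 0.437, 0.797 and 1.32 CPM with ASO-NEAT1-1473. The lowest 3 values all came from ASO-NEAT1-1473, at 1, 2 and 4 counts. Its log2 fold change was -1.86 with ASO-NEAT1-1473 (unadjusted p 0.000942, adjusted p 0.398) and -0.44 with ASO-NEAT1-1047 (95% interval -1.25 to 0.36). The remaining 7 of the 10 lowest p-values belonged to miR-641, miR-9901, miR-3200-3p and miR-185-5p, with log2 fold changes of -0.78, -1.17, -0.47 and -0.33, and to miR-1303, miR-491-3p and miR-548ai, at 1.04, 1.06 and 0.88. miR-185-5p, from an intron of TANGO2, was the most abundant of the 10, at 383, 434 and 423 CPM with ASO-Ctrl, 346, 296 and 406 CPM with ASO-NEAT1-1047 and 311, 268 and 348 CPM with ASO-NEAT1-1473.

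All 6 NEAT1 libraries lay above every ASO-Ctrl library for 10 of the 626 miRNAs (1.6%) and below for 3 (0.479%). Of the 10, 5 were members of miR-548, a primate-specific family of closely related sequences whose reads cannot be assigned with certainty: miR-548ap-3p, miR-548aq-3p, miR-548ah-3p, miR-548p and miR-548az-3p, with log2 fold changes from 0.26 to 0.43. The lowest unadjusted p among these 5 was 0.036, for miR-548p. The family made up 68 of the 626 tested miRNAs (10.9%) and was looked at only after these values were seen, so it has no test. Of the 68, 61 had a positive log2 fold change, with a median of 0.22 beside -0.04 over all tested, and 0 were called. With the spike-in axis as a covariate, described further on, 60 were positive with a median of 0.19. Many members share reads and are not separate evidence. The 3 below were miR-532-3p, miR-489-3p from the CALCR intron and miR-16-1-3p, a passenger strand.

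**Figure D3:**
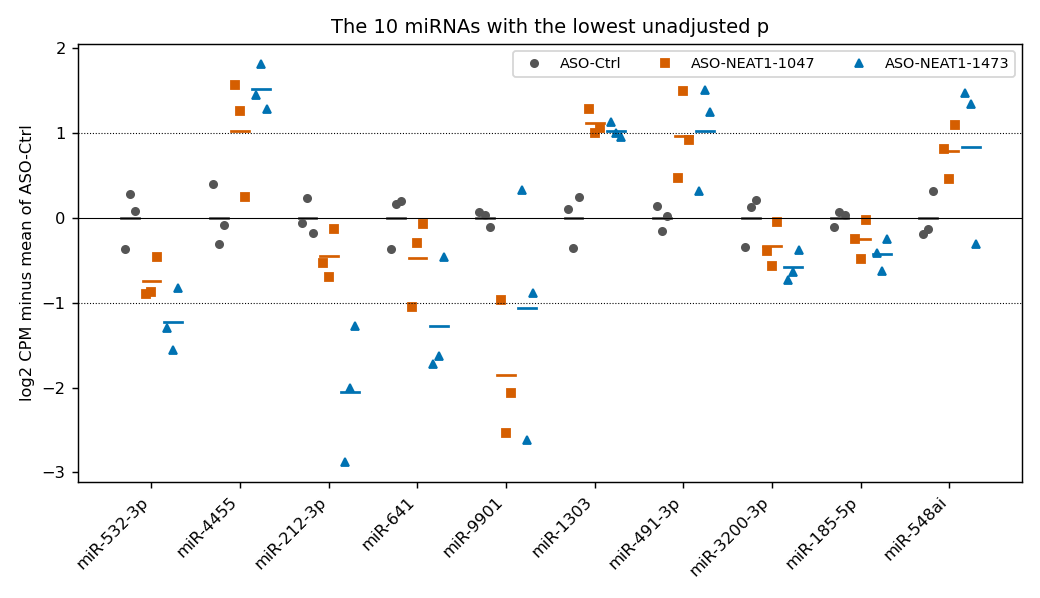
Log2 CPM relative to the mean of the ASO-Ctrl libraries for the 10 miRNAs with the lowest unadjusted p in the pooled comparison; points are libraries, short lines group means and dotted lines 2-fold. miR-532-3p, miR-1303 and miR-491-3p show no overlap between NEAT1 and ASO-Ctrl libraries, and miR-9901 with ASO-NEAT1-1473 ranges from 0.797 to 6.11 CPM.

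The families were read as lists, and 0 members of any of the 19 lists were called in the pooled comparison. The miR-99/miR-100/miR-125 family, which holds let-7 cluster partners and regulators of growth signalling, had 0 of 9 tested members with a positive log2 fold change and a median of -0.31, beside 282 of 626 positive and a median of -0.04 over all tested. Of the 9, miR-99a-5p and miR-100-5p differed by at most 0.255% in any library and are largely the same reads. miR-125a-5p (chr19:51693268-51693291, in an intron of SPACA6) was at 3278, 5035 and 4567 CPM with ASO-Ctrl, at 2798, 3622 and 5037 CPM with ASO-NEAT1-1047 and at 2281, 2373 and 2733 CPM with ASO-NEAT1-1473. The 3 ASO-NEAT1-1473 libraries were below every other library, and ASO-NEAT1-1047 spanned the control range. Its log2 fold change was -0.80 with ASO-NEAT1-1473 (95% interval -1.32 to -0.29, adjusted p 0.398) and -0.17 with ASO-NEAT1-1047. With only the ASO-NEAT1-1473 and ASO-Ctrl libraries in the fit it passed the threshold, at -0.79 (edgeR adjusted p 0.0344), as the only such miRNA. miR-99b-5p, from the same cluster (chr19:51692618-51692639), was at 1423, 2672 and 2531 CPM with ASO-Ctrl, at 1298, 1604 and 2866 CPM with ASO-NEAT1-1047 and at 1225, 1078 and 1453 CPM with ASO-NEAT1-1473. The third ASO-NEAT1-1473 library overlapped the first ASO-Ctrl library, and the pooled log2 fold change was -0.51 (95% interval -1.10 to 0.06).

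The miR-106b/miR-25 cluster, in an intron of MCM7, had 1 of 6 members positive and a median of -0.27. miR-93-3p, its passenger strand at 44.9 CPM, had a log2 fold change of -0.52 (95% interval -0.98 to -0.06, unadjusted p 0.028), and miR-93-5p, with the seed of miR-17-5p, -0.35 (95% interval -0.78 to 0.08). The let-7 family, a guide family of differentiated cells, had 3 of 13 positive with a median of -0.16. However, let-7a-5p, let-7b-5p, let-7c-5p, let-7e-5p, let-7f-5p, let-7g-5p and miR-98-5p, all negative, differed by at most 9.49% in any library. They are not separate evidence. The miR-15/miR-16 family, which restrains the cell cycle, had 5 of 11 positive with a median of -0.11, and miR-16-5p was within 1.5-fold by the equivalence test (log2 fold change -0.11, 95% interval -0.42 to 0.20). The miR-29 and miR-30 families, which restrain matrix and differentiation genes, had medians of -0.04 and 0.05.

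The epithelial miR-200 family had 5 of 7 members positive and a median of 0.14. miR-141-3p was at 35.2, 30.7 and 47.1 CPM with ASO-Ctrl, at 36.6, 40.6 and 35.7 CPM with ASO-NEAT1-1047 and at 30.6, 40.2 and 43.0 CPM with ASO-NEAT1-1473, with full overlap and a log2 fold change of 0.01 (95% interval -0.45 to 0.45). In the miR-34 family, induced by p53, 1 of 6 was positive with a median of -0.14, and miR-34a-5p was within 1.5-fold by the equivalence test (log2 fold change -0.12, 95% interval -0.42 to 0.17). The 10 tested miRNAs that NEAT1 has been proposed to bind had 3 positive, a median of -0.11 and 0 calls, and 9 were within 2-fold. Of the 10, let-7e-5p and miR-98-5p differed by at most 7.28% in any library and are not separate evidence. Among the 10, miR-107, which targets cell-cycle genes, had the lowest estimate, -0.40 (95% interval -0.85 to 0.04), and miR-101-3p was at 0.14 (95% interval -0.30 to 0.57). miR-210-3p, induced by hypoxia as NEAT1 is, was at -0.31 (95% interval -0.99 to 0.33). The 5 tested miRNAs made without Drosha, mirtrons and capped precursors, had a median of -0.10. Of these, miR-484 was lower with ASO-NEAT1-1473, at 76.9, 78.1 and 99.3 CPM, than in the ASO-Ctrl libraries, at 108, 179.8 and 164 CPM, while ASO-NEAT1-1047 ranged from 95.2 to 246 CPM (adjusted p 0.605 and 1).

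The strands of a hairpin did not move closely together. Over 94 hairpins with both strands at a mean of at least 10 CPM, 52 had the same sign on both strands, with a median absolute difference of 0.18 between the log2 fold changes and r = 0.42 across hairpins, which share libraries and are not independent.

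The leading variation of the miRNAs followed that of the spike-ins closely. The leading axis of the 9 libraries' miRNA profiles held 51.2% of their variance, and that of 46 spike-ins, which hold no cell RNA, held 73.4%. The sign of such an axis is arbitrary, and the miRNA axis was turned so that it correlated positively with the spike-in axis. Across the 9 libraries these axes had Pearson's r = 0.991 (exact permutation p = 1.9e-05) and Spearman's rho = 0.967 (exact permutation p = 0.000165); it was 1 relation, so no adjustment was made. Inside groups r was 0.991, and without the 2 libraries farthest from the median on the spike-in axis, ASO-NEAT1-1047 replicate 3 and ASO-Ctrl replicate 2, it was 0.983. Single spike-ins moved accordingly, as UniSp119 ran from 0.379% to 1.02% of the spike-in counts. The NEAT1 libraries were not separated from ASO-Ctrl on either axis (exact permutation p = 0.345 for miRNAs and 0.393 for spike-ins).

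**Figure D4:**
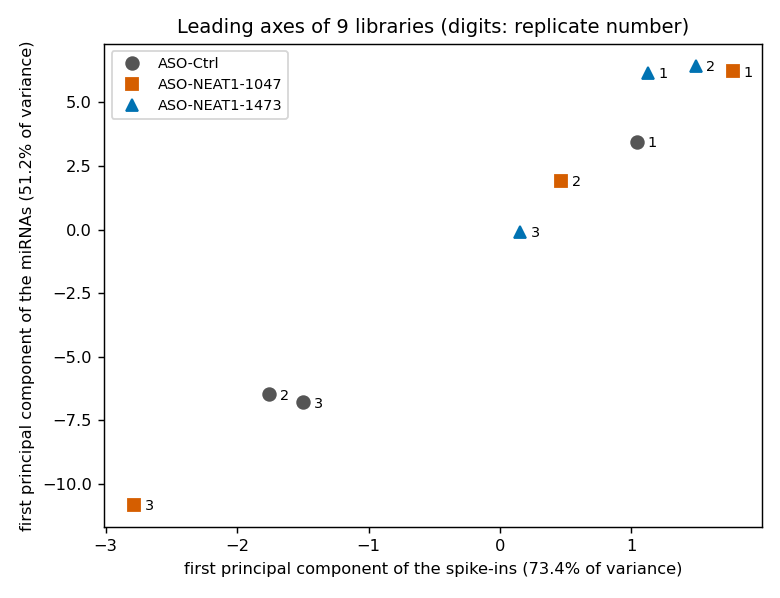
First principal component of the miRNAs against that of the spike-ins for the 9 libraries, coloured by group with the replicate number beside each point. The points lie along a single line (r = 0.991) and the groups overlap along it.

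With the spike-in axis as a covariate, chosen after the data were seen, the bounds tightened and the calls in the pooled comparison stayed at 0. In the fit to 24 libraries all 83 abundant miRNAs were within 2-fold and 73 within 1.5-fold by the equivalence test, and the median of the largest fold inside the interval was 1.29. In the fit to the 9 libraries it was 1.22 over 78 abundant miRNAs, at most 1.43, and all 78 were within 1.5-fold. The common biological coefficient of variation there was 0.10, against 0.21 without the covariate. The median of miR-17~92 changed sign, to -0.06 from 0.11, with 5 of 12 members positive, and that of the miR-30 family to -0.01 from 0.05. The miR-99/miR-100/miR-125 family kept a negative median, at -0.24, but 3 of its 9 members were then positive, miR-99a-5p, miR-100-5p and miR-125b-2-3p. Other negative medians came nearer to 0, to -0.07 for let-7, -0.17 for miR-106b/miR-25, -0.07 for the miRNAs proposed to bind NEAT1 and -0.03 for those made without Drosha. The medians of the miR-200 and miR-29 families moved away from 0, to 0.22 and -0.08. For ASO-NEAT1-1473 against ASO-Ctrl, the 9-library fit with the covariate called 1 miRNA, miR-125a-5p at -0.51 (95% interval -0.71 to -0.30, edgeR adjusted p 0.0236).

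SFPQ and NONO are the protein partners of NEAT1 in paraspeckles, and the series set their loss beside that of NEAT1. These comparisons use siCtrl and share no control library with the NEAT1 comparison. SFPQ siRNAs changed 302 of the 626 miRNAs (48.2%), 160 higher (25.6%) and 142 lower (22.7%), and NONO siRNAs 10 (1.6%). Of the 302, NEAT1 knockdown changed 0 and placed 239 (79.1%) within 2-fold by the equivalence test, beside 72.4% of all tested. The share was uneven: 106 of the 160 higher after SFPQ loss (66.25%) and 133 of the 142 lower (93.7%). All 10 of the NONO-responsive miRNAs were within 2-fold after NEAT1 knockdown. The median NEAT1 log2 fold change was 0.01 over the 160 miRNAs higher after SFPQ loss, whose median there was 1.40, and -0.02 over the 142 lower, whose median there was -0.90.

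The difference between the effects was tested directly. The NEAT1 effect minus the SFPQ effect passed the threshold for 147 miRNAs (23.5%), 71 higher (11.3%) and 76 lower (12.1%), of which 144 were also called for SFPQ. miR-21-3p was at 111, 142 and 122 CPM with ASO-Ctrl, at 104, 103 and 119 CPM with ASO-NEAT1-1047 and at 149, 131 and 123 CPM with ASO-NEAT1-1473, and its log2 fold change was -0.05 after NEAT1 knockdown against 3.25 after SFPQ loss, a difference of -3.30 (95% interval -3.85 to -2.75, edgeR adjusted p 1.3e-08). miR-141-3p differed by -2.92 (edgeR adjusted p 3e-07), and miR-335-3p, which SFPQ loss lowered by a log2 fold change of -1.41, by 1.58 (edgeR adjusted p 2.1e-06). The 10 products of the miR-302 family, typical of pluripotent stem cells, had 20 counts in the 9 antisense libraries together, with 0 to 4 in any library, against 43219 in the 6 SFPQ libraries and 3 in the 3 siCtrl libraries. The NEAT1 effect minus the NONO effect passed for 7 miRNAs (1.12%), 1 higher (0.16%) and 6 lower (0.958%). The largest differences were those of miR-34c-5p and miR-34b-5p, of the p53-induced miR-34 family. miR-34c-5p rose by 3.11 on the log2 scale after NONO loss and was at -0.34 after NEAT1 knockdown, a difference of -3.45 (edgeR adjusted p 1.0e-06). miR-34b-5p rose by 2.97 and was at -0.05, a difference of -3.02 (edgeR adjusted p 9.1e-06). miR-34a-5p, of the same family, rose by 1.16 on the same scale and was at -0.12, a difference of -1.29. The others were miR-489-3p, miR-149-5p and miR-185-5p, lower, and miR-676-3p, higher, at 1.47. This count was 3 without ASO-Ctrl replicate 2 and 14 without ASO-NEAT1-1047 replicate 3.

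**Figure D5:**
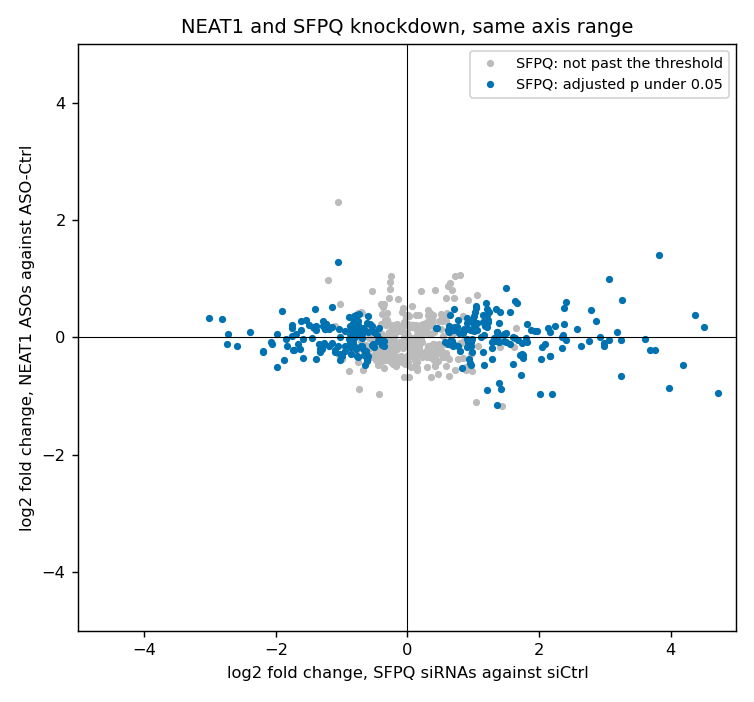
Log2 fold change after NEAT1 knockdown against that after SFPQ loss, with the same range on both axes, for 288 miRNAs called for SFPQ and 324 others; blue points passed the threshold for SFPQ. The points spread along the SFPQ axis and stay near 0 on the NEAT1 axis; 3 miR-302 products lie outside the axes and are not drawn.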

How the data were processed

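Small RNA libraries made with a kit that adds unique molecular identifiers were sequenced from SBC-3 cells. The deposited tables hold counts per annotated miRNA and spike-in in each library, made by the authors with featureCounts (Subread 2.0.3, per the file headers). Per the submitters' processing notes, Trimmomatic 0.39, Bowtie 1.3.0, UMI-tools 1.1.1, DESeq2 1.38.1 and hg38 were also used; the labels do not tell whether the deposited counts are molecules or reads. The 2883 loci were named by position (3 bases tolerance): 2364 mature miRNAs from RefSeq, 275 from GENCODE v29 and 13 by accession. Near-identical miRNAs share reads, and 169 have several loci.

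Samples were grouped by title. The members, lists and tests were chosen with earlier results of these data known. edgeR 4.0.16 (R 4.3.3; TMM scaling, filterByExpr with a minimum count of 10, quasi-likelihood test) was fitted to 24 libraries at once, with 16 residual degrees of freedom and Benjamini-Hochberg adjustment over 626 miRNAs at 0.05. CPM are TMM-scaled. The 95% intervals invert that test, and equivalence was tested with 2 one-sided tests at 2-fold and 1.5-fold. Exact permutation tests went through every grouping or ordering of the libraries in Python 3.11.15, and the 52 spike-ins stayed out of library sizes. The scripts were tested on simulated data. The rule for naming took any called miRNAs (up to 10 in each direction), the 10 lowest pooled p-values, the 10 most abundant in ASO-Ctrl, those within 1 Mb of NEAT1, all of miR-17~92, up to 4 of the most abundant of each other list, and the 10 largest SFPQ changes at a mean of at least 10 CPM. miR-125a-3p, miR-99b-5p, miR-93-3p, miR-483-3p, miR-3168, the accession-named miRNA and those singled out by non-overlap or by a difference from NONO were named after their values were seen. Alternatives were other scaling (RLE, library totals, spike-in totals), other filters, only the groups compared, summed loci, DESeq2 1.42.0, the replicate block and each library left out; the spike-in covariate and the 9-library block were added after the data were seen.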

Additional observations from a re-analysis of the deposited data

How the results depend on the processing

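The pooled NEAT1 comparison had 0 calls under every alternative run, and each oligonucleotide had 0 with any of the 9 libraries left out (0 to 0). Without the filter on low counts ASO-NEAT1-1047 had 1 call, miR-3168, with 68 counts in its first library and 2 and 3 in the others, and the difference between oligonucleotides had 1, MIMAT0041634. ASO-NEAT1-1473 had 1 call with only the groups compared and 1 with the spike-in covariate in 9 libraries, both miR-125a-5p. The labels do not say whether replicate numbers pair the libraries. After each group's mean was subtracted from each miRNA, same-numbered libraries correlated from -0.24 to 0.71, with 7 of 9 pairs over 0.1. Of the 9 libraries, 8 correlated best with their own number, a hint of pairing from the data. With the replicate block, the pooled count was 0, NEAT1 minus NONO gave 13 calls, and in 9 libraries ASO-NEAT1-1473 had 14 calls and the difference between oligonucleotides 2, miR-21-5p and MIMAT0041634 (edgeR adjusted p 0.00649 for both). Against ASO-Ctrl the 14 included miR-21-5p at 0.54 and miR-125a-5p at -0.76 on the log2 scale (edgeR adjusted p 0.0174 for both).

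NEAT1 minus NONO, 7 calls, gave 4 with RLE, 2 with spike-in totals, 4 at a mean of at least 10 CPM, 11 with only the groups compared, 15 with loci summed, 36 with the spike-in covariate, 12 with DESeq2 and 3 to 14 with a library left out. NEAT1 minus SFPQ, 147 calls, gave 240.0 with the covariate and 127 to 173 with a library left out. Abundant miRNAs within 1.5-fold, 27, became 0 with spike-in totals, 73 and 78 with the covariate in 24 and 9 libraries, 69 with the 9-library block and 0 to 21 with a library left out. Those within 2-fold, 81, became 194 with a limit of 100 CPM, where 208 miRNAs qualify, and 72 to 83 with a library left out. The median largest fold ran from 1.43 to 1.59, and the log2 ratio of miRNA to spike-in counts from -0.07 to 0.05, with a library left out. The causes were not tested. In the pooled comparison 105 named miRNAs gave 2181 values over these settings, 161 with another sign and 0 past the threshold (lowest adjusted p 0.154). Low counts limit species under 10 CPM.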

Other observations

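MIMAT0041634, a miRNA that matched no name by position (chr21:8206598-8206618), had 64, 30 and 24 counts in the ASO-Ctrl libraries, 42, 31 and 8 with ASO-NEAT1-1047 and 105, 52 and 32 with ASO-NEAT1-1473. The first library of each group was the highest of its group. The tables held 1 miRNA with counts in all 6 NEAT1 libraries and in 0 ASO-Ctrl libraries, and 2 with counts in all 3 ASO-Ctrl libraries and 0 NEAT1 libraries.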
